A study of Mus musculus with 34 samples.

Results

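The mouse Hox genes are described here through the open chromatin around them in fibroblasts and embryoid bodies in which the transcription factor Etv2 was switched on. The members are 38 Hox genes of the Hoxa, Hoxb, Hoxc and Hoxd clusters, out of 21631 protein-coding genes in the annotation. They were chosen by name and not by a threshold on any measured value, but with earlier results of these data known. For each gene, the summits of ATAC-seq peaks inside the gene or within 5 kb of it were counted. For each cluster, all summits from 5 kb before its first member to 5 kb after its last were counted once. The clusters so defined hold 628 of the 707465 summits in the 19 deposited lists.

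The labels describe 34 samples in 17 groups of 2. Mouse embryonic fibroblasts (MEF), named iHA-Etv2 in the protocol, were profiled without doxycycline (day 0) and with doxycycline, which induces Etv2, on days 1, 2 and 7. The day-7 cells were taken unsorted and, in a further group, as Flk1-positive cells, Flk1 being the receptor that marks early vessel and blood progenitors. MEF with a knockdown of Brg1, the ATP-driven motor of the SWI/SNF remodelling complex, were profiled on day 0 and on days 1, 2 and 7 with and without doxycycline. Embryoid bodies (EB), which are aggregates of differentiating embryonic stem cells, were profiled at 12 h without doxycycline, with it, and with it after selection for Flk1. EB carrying floxed Brg1 were profiled on day 4 of induction with and without 4OHT (4-hydroxytamoxifen), and both groups were labelled as given doxycycline. The labels do not say how the knockdown was made or what drives the recombinase, and Brg1 and Etv2 levels were not analysed here. In 15 groups both samples name 1 shared summit list, and each of the 4 floxed samples has a list of its own. The lists ranged from 11188 to 85498 summits, and read depth was not analysed here.

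Hox genes encode homeodomain transcription factors that give cells along the body axis their position. Within a cluster the genes lie in the order of the body regions they pattern, and they are switched on in that order in the embryo. Members of groups 1 to 4 act towards the head and are called anterior here, groups 5 to 8 central, and groups 9 to 13, which pattern the lower trunk, the limbs and the tail, posterior. Cultured fibroblasts are known to keep a Hox pattern that reflects where in the body they came from. Embryonic stem cells hold the clusters under Polycomb repression, often at CpG-rich start sites. There were 11 anterior, 11 central and 16 posterior members.

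Promoter sequences of 6 members show start sites open in most EB lists but no MEF list, or open in at least 6 MEF lists. They are RefSeq sequences of build GRCm38.p6 (mm10), from 250 bases before the start to 50 after it, written 5′ to 3′ on the gene's strand, with each CG dinucleotide in capitals. The first 4 had a summit within 500 bp of the start in at least 6 of the 7 EB lists and in 0 of the 12 MEF lists. Hoxd9 and Hoxa13, with 5 EB and 0 MEF lists each, lay just outside this choice. Hoxd13 is at chr2:74667975-74668274 (+), Hoxd11 at chr2:74682073-74682372 (+), Hoxd10 at chr2:74691641-74691940 (+) and Hoxd1 at chr2:74762730-74763029 (+). Hoxa3, with its window at chr6:52213018-52213317 (−), had a summit within 500 bp of the start in 6 MEF lists and 0 EB lists, and inside the printed window in 1 MEF list. This listed start is the far end of a long interval and lies between the central genes Hoxa6 and Hoxa7. Hoxa5, with its window at chr6:52204538-52204837 (−), had one within 500 bp in 11 MEF and 6 EB lists, and inside the printed window in 0 MEF and 3 EB lists.
Hoxd13: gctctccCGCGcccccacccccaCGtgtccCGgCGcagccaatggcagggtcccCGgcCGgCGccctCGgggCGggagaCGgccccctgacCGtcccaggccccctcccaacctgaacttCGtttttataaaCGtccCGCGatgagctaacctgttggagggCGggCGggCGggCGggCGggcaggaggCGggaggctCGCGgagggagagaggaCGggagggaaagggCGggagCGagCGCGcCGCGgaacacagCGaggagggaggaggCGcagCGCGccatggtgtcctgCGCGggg
Hoxd11: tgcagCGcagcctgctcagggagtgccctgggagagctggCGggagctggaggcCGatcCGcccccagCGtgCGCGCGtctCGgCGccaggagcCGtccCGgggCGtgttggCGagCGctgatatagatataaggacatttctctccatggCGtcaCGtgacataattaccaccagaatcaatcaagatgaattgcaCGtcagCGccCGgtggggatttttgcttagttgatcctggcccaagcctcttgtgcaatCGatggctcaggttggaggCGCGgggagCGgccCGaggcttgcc
Hoxd10: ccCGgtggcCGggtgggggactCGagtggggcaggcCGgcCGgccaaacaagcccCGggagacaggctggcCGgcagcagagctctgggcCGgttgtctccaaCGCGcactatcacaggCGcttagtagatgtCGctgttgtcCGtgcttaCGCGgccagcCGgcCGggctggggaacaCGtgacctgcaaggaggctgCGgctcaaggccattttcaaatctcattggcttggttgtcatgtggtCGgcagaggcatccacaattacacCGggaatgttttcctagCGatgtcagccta
Hoxd1: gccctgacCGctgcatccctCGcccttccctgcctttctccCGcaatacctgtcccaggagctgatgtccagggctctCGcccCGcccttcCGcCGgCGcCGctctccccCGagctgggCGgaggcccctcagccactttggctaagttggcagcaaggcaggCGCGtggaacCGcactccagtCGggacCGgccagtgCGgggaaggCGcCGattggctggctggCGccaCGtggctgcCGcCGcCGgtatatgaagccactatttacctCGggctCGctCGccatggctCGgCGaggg
Hoxa3: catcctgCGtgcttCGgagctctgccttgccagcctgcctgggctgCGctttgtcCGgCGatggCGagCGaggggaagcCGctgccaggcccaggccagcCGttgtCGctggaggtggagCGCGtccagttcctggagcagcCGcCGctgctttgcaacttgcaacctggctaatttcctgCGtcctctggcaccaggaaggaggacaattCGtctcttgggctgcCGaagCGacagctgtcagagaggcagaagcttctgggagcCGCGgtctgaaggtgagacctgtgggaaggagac
Hoxa5: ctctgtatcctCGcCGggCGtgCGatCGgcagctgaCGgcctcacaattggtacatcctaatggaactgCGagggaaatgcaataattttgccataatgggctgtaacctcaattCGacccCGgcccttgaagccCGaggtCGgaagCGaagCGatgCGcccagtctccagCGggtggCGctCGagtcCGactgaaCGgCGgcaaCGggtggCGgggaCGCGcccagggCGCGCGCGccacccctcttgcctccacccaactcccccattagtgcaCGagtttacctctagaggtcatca
These windows hold 37 CG dinucleotides for Hoxd13, 25 for Hoxd11, 22 for Hoxd10, 29 for Hoxd1, 20 for Hoxa3 and 29 for Hoxa5. The median over 21045 promoter windows of protein-coding genes was 13, so each of the 6 lies above it. The 24 windows available for 22 members had a median of 14.5 and ran from 4 to 45, so the family as a whole was near the median of all windows and the 6 shown are richer than most members. The letters CGGAA, the core of the ETS-family motif to which Etv2 belongs, were found on either strand in 5 of the 24 member windows (20.8%) and in 35.9% of all windows. The letters TGANTCA, the AP-1 motif, were found in 1 member window (4.17%) and in 7.04% of all windows. These matches describe the letters of the windows only.

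Relative to the start, with negative positions before it, summits at Hoxd10 lay from -273 to -123 bp in the 7 EB lists. At Hoxd13 they lay from -433 to 301 bp with a median of 4.0 bp, and at Hoxd1 from -59 to 271 bp with a median of 80.0 bp. At Hoxa5 the MEF summits lay from 110 to 358 bp and the EB summits from -39 to 268 bp, so the MEF summits all lay past the end of the printed window. At Hoxa3 the MEF summits lay from -322 to 358 bp.

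Uninduced EB had a summit inside or within 5 kb of every Hox member, whereas the Hox summits of uninduced fibroblasts lay mostly in Hoxa and Hoxb. The EB list held 131 Hox summits among 85498, which is 0.153% (95% Clopper-Pearson interval 0.128% to 0.182%). The MEF day-0 list held 38 among 62028, which is 0.0613% (0.0434% to 0.0841%). The difference, MEF minus EB, was -0.092 percentage points (Newcombe 95% interval -0.125 to -0.0588). These intervals cover counting error only, because each list stands for both samples of its group and no replicate spread or test is available. In bulk chromatin, fewer cells with an open site and less opening per cell cannot be told apart.

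By cluster the EB list held 31 summits in Hoxa, 27 in Hoxb, 44 in Hoxc and 29 in Hoxd, and the MEF list 23, 11, 2 and 2. Hoxa thus held 23 of the 38 fibroblast summits, and Hoxc, the cluster with the most summits in EB, was nearly empty in fibroblasts. All 38 members had at least 1 summit in uninduced EB, against 81.8% of all genes. In MEF day 0, 21 of 38 members did, against 72.4% of all genes. Per member, 32 had fewer summits in MEF than in EB, 3 had more (Hoxa2, Hoxa3 and Hoxa7) and 3 had the same number (Hoxa4, Hoxa6 and Hoxb3). Of all genes, 37.2% had fewer and 25.4% had more. Of the EB Hox summits, 105 of 131 (80.2%) had no MEF summit within 250 bp, against 72.2% of all EB summits. In the other direction, 11 of 38 MEF Hox summits had no EB summit within 250 bp, against 60.8% of all MEF summits.

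**Figure D1:**
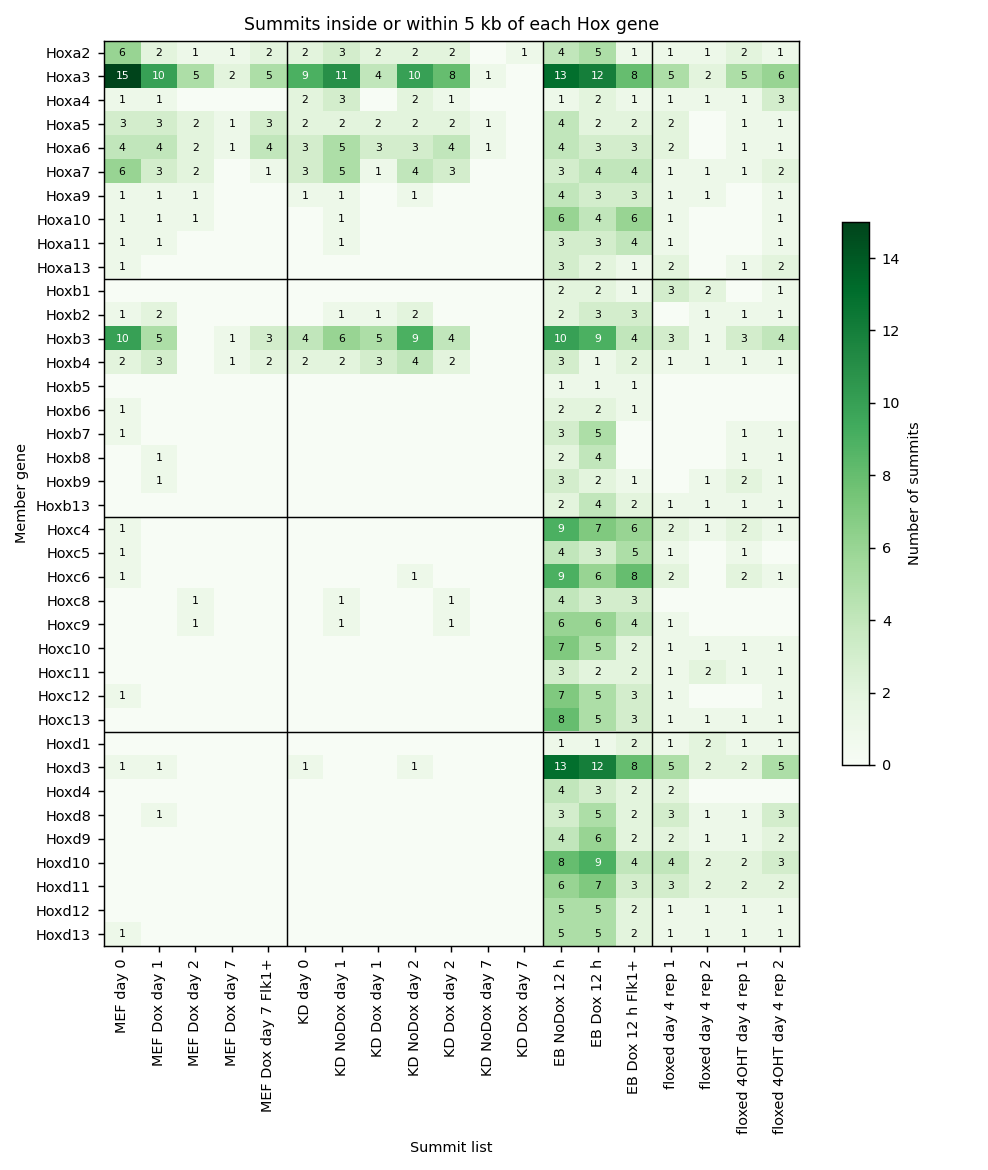
Number of summits inside or within 5 kb of each of the 38 Hox genes (vertical axis, by cluster) in each of the 19 lists (horizontal axis; KD, Brg1 knockdown; Dox, doxycycline; blank, 0 summits). Hoxa3 and Hoxb3 hold the most in MEF day 0 (15 and 10), and the Hoxc and Hoxd rows are filled in the 12 h EB lists and mostly blank in the MEF lists.

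The clusters were dense in EB. Uninduced EB had 25.0 Hox summits per 100 kb, against 4.18 over all gene windows, a ratio of 5.97. MEF day 0 had 7.24 against 3.49, a ratio of 2.07. In the 100 kb on each side of the 4 clusters the density was 5.25 per 100 kb in uninduced EB and 2.25 in MEF day 0, so in both cell types the clusters were denser than their flanks. The members are short, with a median length of 3721 bp against 17329 bp for all genes, and windows of neighbouring members overlap, so 1 summit can count for several of them. Hoxa3 spans 44009 bp in this annotation and covers Hoxa4, Hoxa5 and Hoxa6, which raises its count. Part of the EB density came from peaks with several summits: 55.7% of EB Hox summits lay in such peaks, against 29.9% of all summits of that list. The corresponding values in MEF day 0 were 47.4% and 30.0%. With summits within 500 bp joined, 95 Hox summits remained in uninduced EB and 30 in MEF day 0.

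Hox summits scored below the middle of their lists in both cell types. The authors' score is a q value written as −log10, and it was ranked within each list. The median Hox summit stood at the 33.0 percentile of the MEF day-0 list and at the 32.6 percentile of the uninduced EB list, and over the 19 lists it ran from the 9.08 to the 38.7 percentile. The strongest stood at the 93.3 percentile in MEF, inside Hoxa3, and at the 83.6 percentile in EB, beside Hoxc13.

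**Figure D2:**
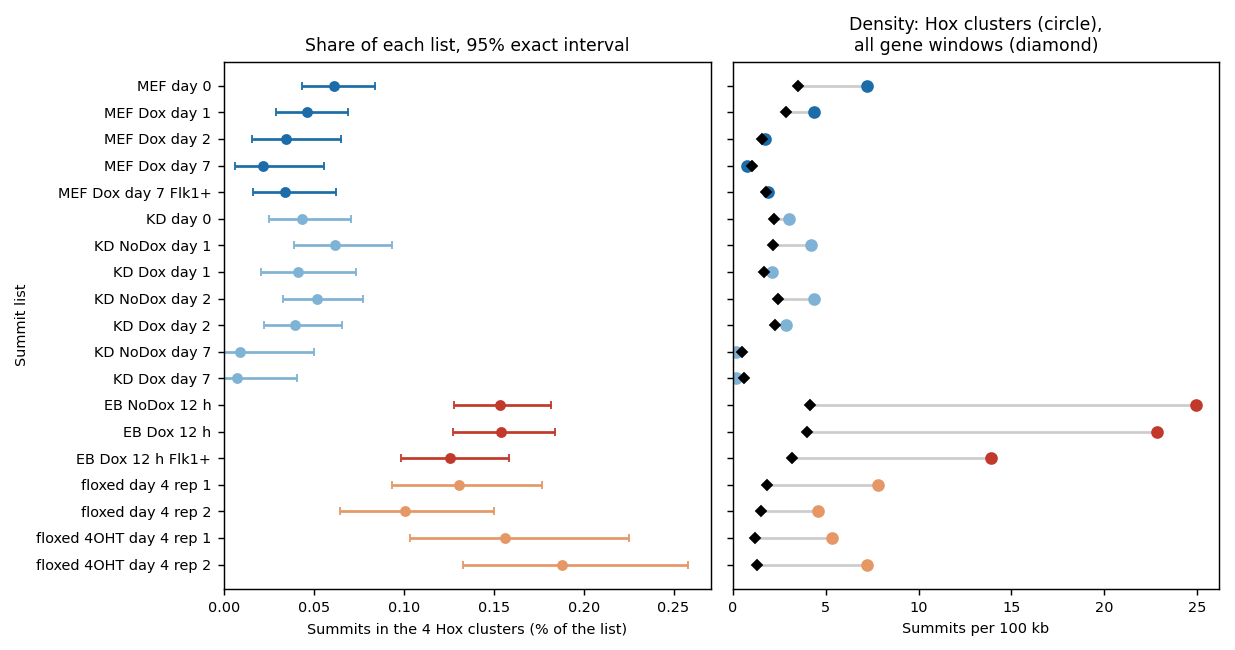
Left, summits in the 4 Hox clusters as a percentage of each list, with exact 95% intervals for counting error. Right, Hox summits per 100 kb (circles) and summits per 100 kb over all gene windows (diamonds). The 3 lists of 12 h EB stand at 0.126% to 0.154% and the MEF lists at 0.00733% to 0.0617%.

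In uninduced fibroblasts a smaller share of posterior than of anterior or central members had an open site. Class and cluster were not separated in this comparison. All 10 Hoxa members, the posterior ones included, had a summit in MEF day 0, against 5 of 10 in Hoxb, 4 of 9 in Hoxc and 2 of 9 in Hoxd. In MEF day 0, 8 of 11 anterior members (72.7%) had a summit, 7 of 11 central (63.6%) and 6 of 16 posterior (37.5%), so the anterior share was close to the 72.4% of all genes and the posterior share lay below it. On day 2 of induction the order was another one, with 2 anterior, 4 central and 3 posterior members, and all 3 classes were below the 56.1% of all genes. Each summit was also given to its nearest member. By this rule a summit inside the long Hoxa3 interval but in no shorter member counted as anterior. That held even between Hoxa4 and Hoxa5 and between Hoxa6 and Hoxa7, which raises the anterior counts at the cost of the central ones. In MEF day 0, 27 summits were anterior, 5 central and 5 posterior. In uninduced EB the corresponding counts were 46, 21 and 58. The posterior share was therefore 13.5% in MEF (5 of 37, exact interval 4.54% to 28.8%) and 46.4% in EB (58 of 125, 37.4% to 55.5%). The difference was -32.9 percentage points (-44.5 to -16.1, counting error only). Group 13 shows it plainly: Hoxa13, Hoxb13, Hoxc13 and Hoxd13, the genes of the limb ends and tail, had 3, 2, 8 and 5 summits in uninduced EB and 1, 0, 0 and 1 in MEF day 0.

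Over all 12 MEF lists, 12 members (31.6%) had no summit in any, against 22.1% of all genes. They were 8 posterior genes (Hoxb13, Hoxc10, Hoxc11, Hoxc13, Hoxd9, Hoxd10, Hoxd11 and Hoxd12), 1 central gene (Hoxb5) and 3 anterior genes (Hoxb1, Hoxd1 and Hoxd4). None of them is in Hoxa. A further 10 members (26.3%) had a summit in exactly 1 MEF list, against 4.74% of all genes. At the other end, Hoxa2, Hoxa3, Hoxa5 and Hoxa6 had one in at least 10 MEF lists, which is 10.5% of the members against 43.2% of all genes. Hoxa2 and Hoxa3 pattern the hindbrain and the pharyngeal arches, and Hoxa5 acts in the neck and the lung. In the 7 EB lists, 19 members (50.0%) had a summit in every list, against 59.8% of all genes. Among the 19 were Hoxb13, Hoxc10, Hoxc11, Hoxc13, Hoxd1 and 5 of the posterior Hoxd genes.

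**Figure D3:**
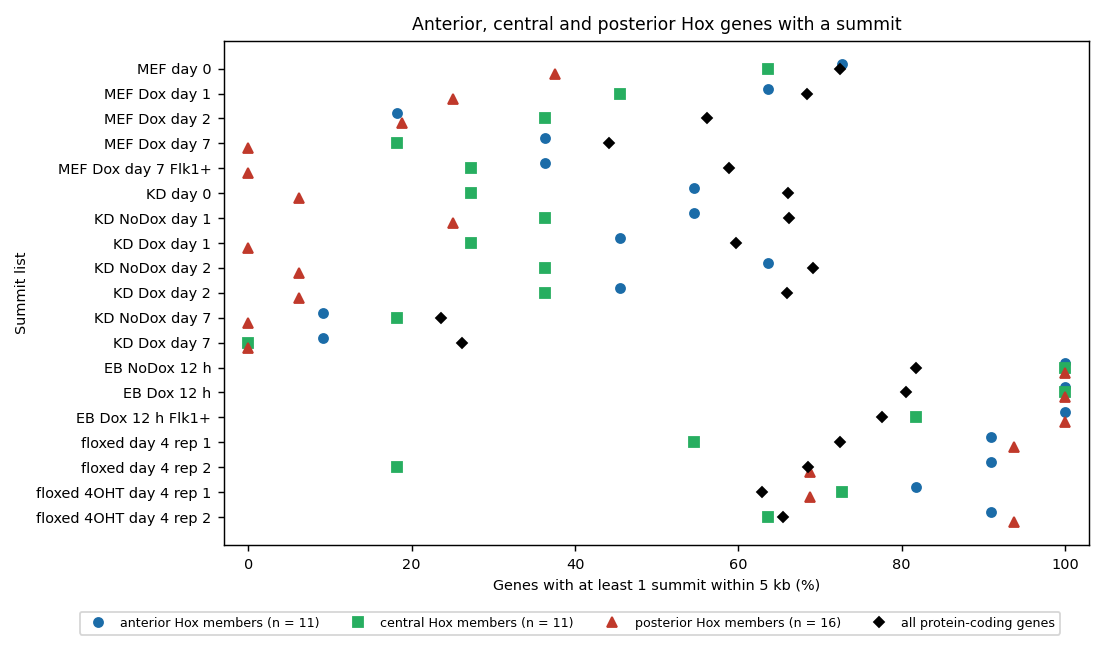
Percentage of anterior (circles), central (squares) and posterior (triangles) Hox members with at least 1 summit within 5 kb in each list, with all protein-coding genes as diamonds. Posterior members stand lowest or level with the lowest class in all MEF lists but day 2 and at 100% in the 12 h EB lists, where all 16 had a summit.

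Joining the summits of all lists within 250 bp gave 154 regions in the clusters. Of these, 111 (72.1%) had summits in EB lists only, 31 in both cell types and 12 in MEF lists only. In Hoxa 17 of 40 regions were EB only, in Hoxb 24 of 37, in Hoxc 37 of 41 and in Hoxd 33 of 36. With regions given to members by the rule used for summits, 58 of 65 posterior regions were EB only, 20 of 28 central and 33 of 61 anterior. The fibroblast-only regions were mostly in Hoxa, with 7 of the 12, and 4 were in Hoxb. The counts were the same (111, 31 and 12) without the day-7 knockdown lists.

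The most widely shared Hox region lay 3835 bp outside Hoxa2, at chr6:52158260-52158868, with a summit in 18 of 19 lists. A region inside Hoxa5, at chr6:52204229-52204626 and 167 bp from its start, was in 17 lists. One inside Hoxb4, at chr11:96318684-96320051, was in 16, and one inside Hoxa3, at chr6:52172619-52172793, was in 14. No Hox region was in all 19 lists, and 50 of the 154 were in 1 list. A set of 7 regions had a summit in all 7 EB lists and in no MEF list. They lay at or near Hoxc13, Hoxc10, Hoxd13, Hoxd11, Hoxd10, Hoxd8 and Hoxd1, and the Hoxd13 region (chr2:74667640-74668526) covers the start shown above.

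**Figure D4:**
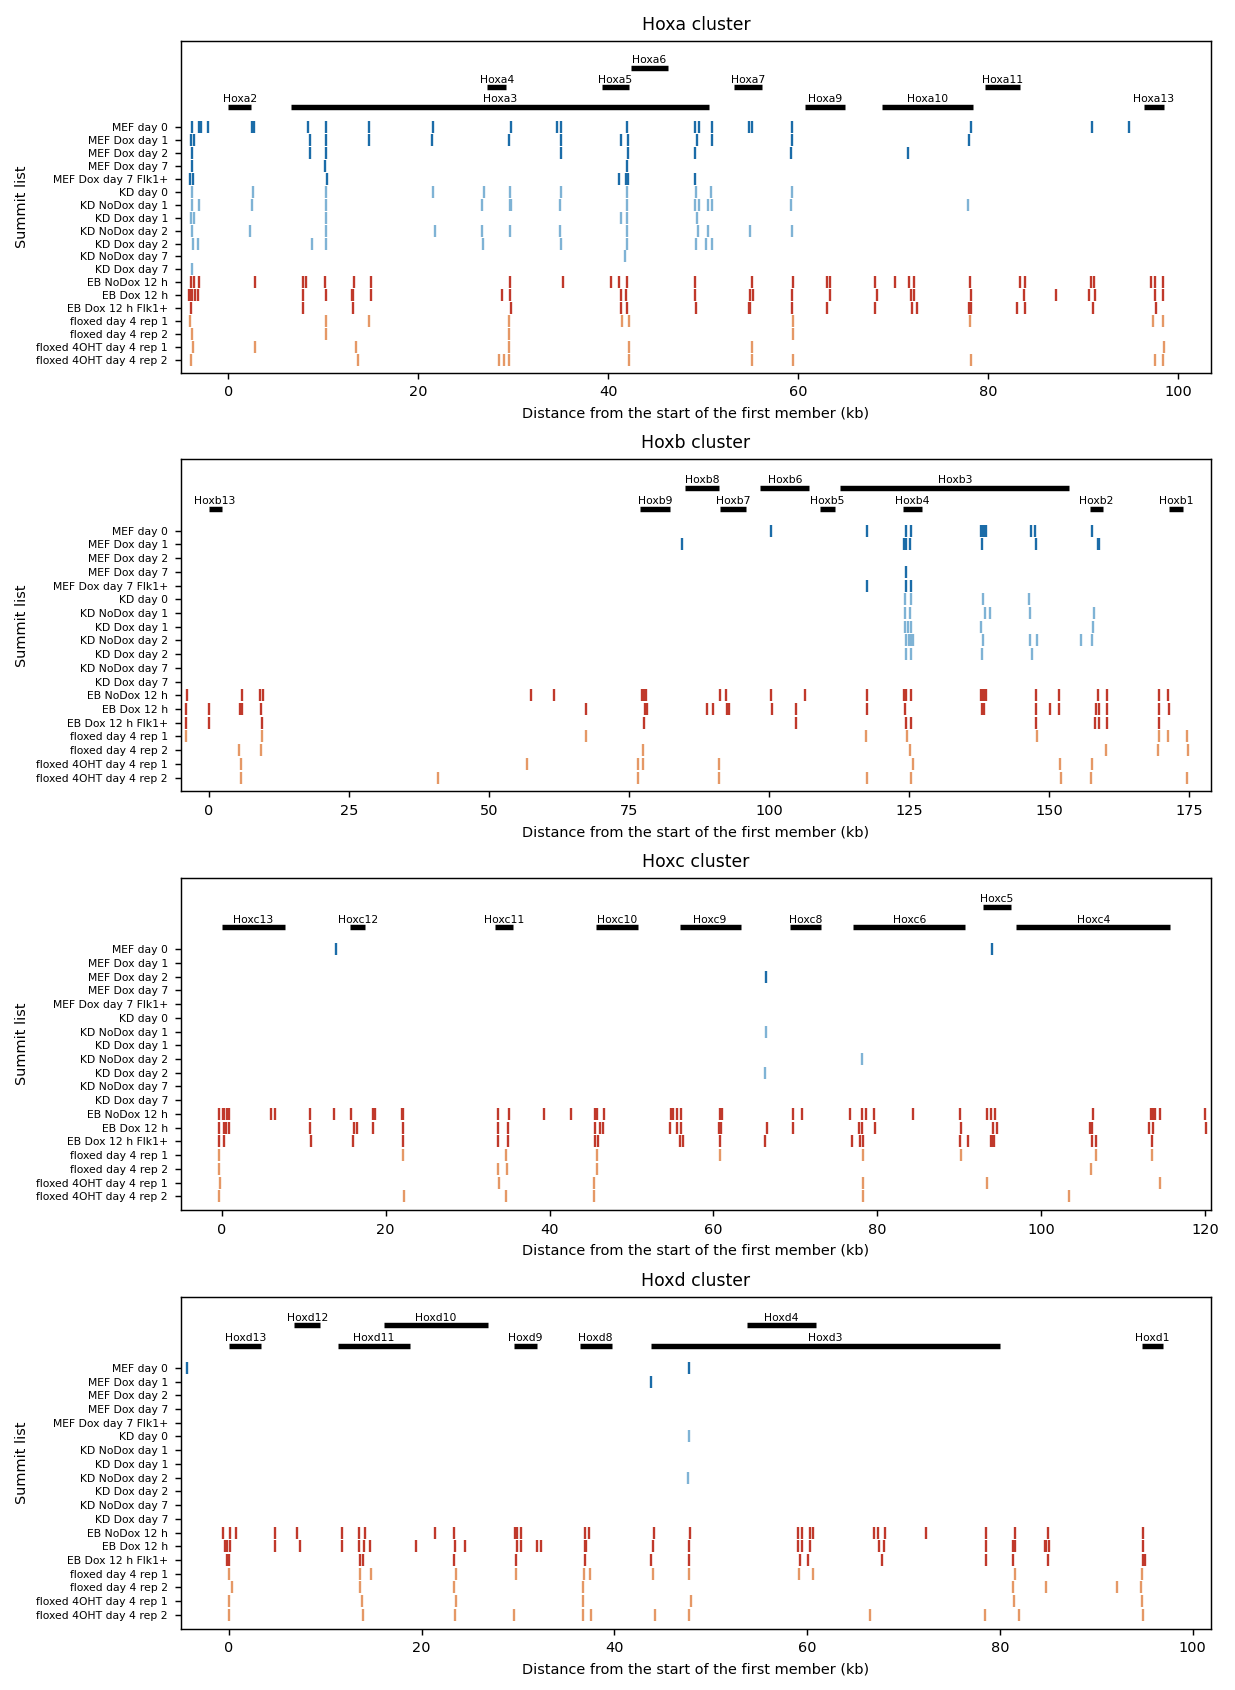
Position of every summit (ticks, 1 line per list) along each Hox cluster, with the genes as black bars; the horizontal axis is the distance in kb from the start of the first member. Fibroblast ticks gather over Hoxa2 to Hoxa7 and over Hoxb4 and Hoxb3, and EB ticks run along all 4 clusters.

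At start sites the contrast was of the same kind. Of the 22 members with a promoter sequence, 4 (18.2%) had a summit within 500 bp of a start in MEF day 0, against 55.4% of all 17274 genes with one: Hoxa2, Hoxa3, Hoxa5 and Hoxa10. In uninduced EB 15 members (68.2%) did, against 65.3% of all genes. Across the 12 MEF lists 0 to 5 members (0.0% to 22.7%) had a summit there, against 15.5% to 55.4% of all genes. Across the 3 lists of 12 h EB 11 to 15 did (50.0% to 68.2%), against 63.7% to 65.4%. In the 4 floxed EB lists it was 5 to 11 members (22.7% to 50.0%), against 52.0% to 58.5%. The member share was thus close to that of all genes in uninduced EB and below it in MEF day 0, and the floxed lists met the MEF range at 5 members.

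From day 0 to day 7 with doxycycline the fibroblast lists held fewer summits, and fewer of them in the Hox clusters. Each day is set against day 0, so doxycycline and days in culture cannot be told apart here. Without doxycycline the knockdown lists went from 36730 summits and 16 Hox summits on day 0 to 11188 and 1 on day 7. The lists shrank from 62028 summits on day 0 to 50015 on day 1, 26217 on day 2 and 18418 on day 7. Hox summits numbered 38, 23, 9 and 4, which is 0.0613%, 0.046%, 0.0343% and 0.0217% of the lists. These days share the day-0 list, so their differences are not independent. The difference from day 0 was -0.0153 points on day 1 (-0.0428 to 0.0131), -0.0269 on day 2 (-0.0549 to 0.00816) and -0.0395 on day 7 (-0.0659 to -0.00159). The interval left out 0 on day 7 only, and it included 0 there too with summits within 500 bp joined (-0.0561 to 0.0196) or with scores of 10 or more (-0.0727 to 0.0351). With the day-0 list cut to its 18418 strongest summits, it held 4 Hox summits, as many as day 7, so the day-7 difference was absent at equal list length. On day 2 the same step gave 9 induced against 8 uninduced Hox summits. On day 1 the difference was -0.008 points at equal list length.

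By member, 12 had fewer summits on day 1 than on day 0 and 5 more, against 30.6% and 14.1% of all genes. On day 2, 19 had fewer and 2 more, against 49.5% and 5.65%, and on day 7, 21 had fewer and 0 more, against 56.1% and 4.75%. The share of members with fewer summits was near the share of all genes on each day (21 of 38 members is 55.3%), but these shares are not on an equal footing. A gene without a summit on day 0 cannot have fewer, and 21 members (55.3%) had one then, against 72.4% of all genes. On day 7 all 21 members that could have fewer did. The same limit holds for the other counts of members with fewer summits in fibroblasts. Members with any summit went from 21 on day 0 to 16, 9 and 6, while the share over all genes went from 72.4% to 68.5%, 56.1% and 44.1%. The matching of summits gave another view. On day 1, 22 of the 38 day-0 Hox summits (57.9%, 40.8% to 73.7%) had no summit within 250 bp, against 37.6% of all day-0 summits. On day 2 it was 31 of 38 (81.6%) against 66.7%, and on day 7 34 of 38 (89.5%) against 79.7%. The median day-0 Hox summit stood at the 33.0 percentile of its list. Hox and all summits were not matched for score, so the part that low scores have in these values was not tested.

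Most of the Hox summits left in the induced lists were in Hoxa. On day 2 the summits were 8 in Hoxa, 0 in Hoxb, 1 in Hoxc and 0 in Hoxd, and on day 7 they were 3, 1, 0 and 0. Hoxa3 had 15 summits on day 0, then 10, 5 and 2. Hoxb3 had 10, then 5, 0 and 1, and Hoxa7, a central trunk gene, 6, then 3, 2 and 0. Each of the 3 genes had its highest count on day 0. Hoxa5 had 3, 3, 2 and 1, and its start had a summit on every day. No posterior member had a summit on day 7, against 6 on day 0, 4 on day 1 and 3 on day 2.

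Flk1-positive cells of day 7 had more Hox summits than unsorted day-7 cells, in a longer list. They had 10 among 29520 (0.0339%), against 4 among 18418. The 10 lay in Hoxa (7) and Hoxb (3). Compared with unsorted day 7, 7 members had more and 0 fewer, against 33.4% and 7.24% of all genes. All 4 Hox summits of the unsorted list had a partner in the sorted one, and 25.9% of all summits of the unsorted list had none. With 4 Hox summits the 2 values cannot be told apart. Hoxa3 had 5 summits in the sorted cells, Hoxa6 4, Hoxa5 and Hoxb3 3 each, Hoxa2 and Hoxb4 2 each and Hoxa7 1, which together are the 7 members with any, against 58.9% of all genes. All 7 are anterior or central. Against day 0, 18 members had fewer and 0 more, against 46.6% and 6.98% of all genes, and 31 of 38 day-0 Hox summits (81.6%, 65.7% to 92.3%) had no partner, against 64.6% of all. The difference in share was -0.0274 points (-0.0549 to 0.00559), and -0.00678 points at equal list length.

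**Figure D5:**
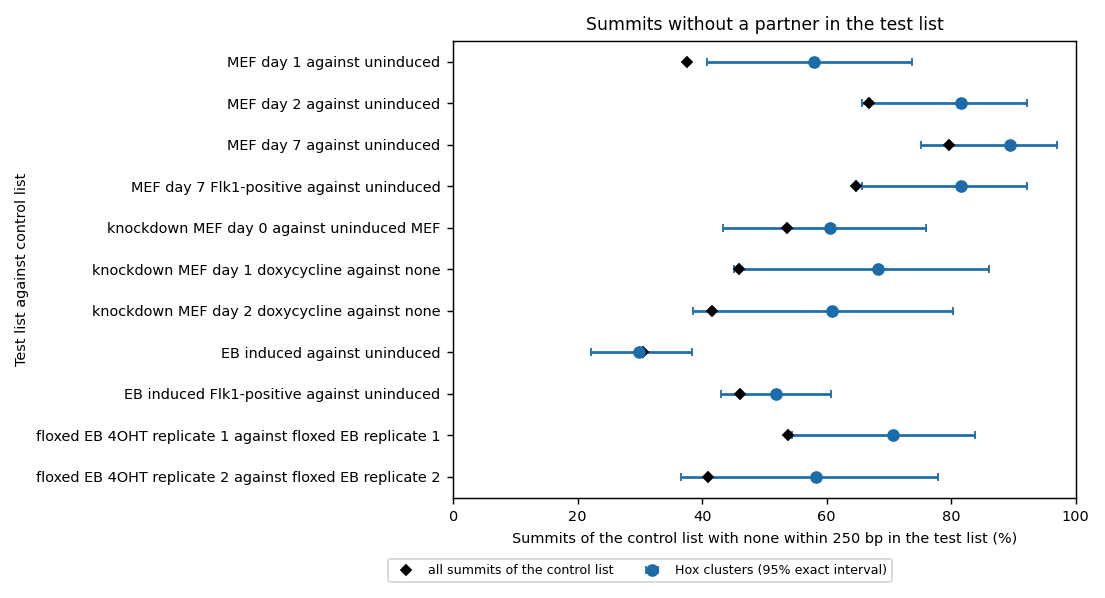
Percentage of the summits of each control list that had no summit within 250 bp in the test list, for the Hox clusters (circles, exact 95% interval for counting error) and for all summits (diamonds). The Hox value is above that of all summits in each comparison drawn except EB induced against uninduced, where it was 29.8% against 30.4%. Of the comparisons not drawn, Flk1-positive against unsorted day-7 MEF went the other way (0.0% of 4 Hox summits against 25.9%). In the others not drawn the Hox value was above. Hox and all summits were not matched for score.

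In knockdown fibroblasts of day 0 most Hox summits were assigned to anterior members, 14 of the 16. As in MEF day 0, the long Hoxa3 interval raises this count. On days 1 and 2 this count was 18 of 22 and 19 of 23 without doxycycline and 9 of 11 and 13 of 15 with it, and on day 7 without doxycycline it was 0 of 1. On day 0 the knockdown list held 16 Hox summits among 36730 (0.0436%), of which 11 were in Hoxa, 4 in Hoxb, 0 in Hoxc and 1 in Hoxd. Summits near 10 members were found, against 66.0% of all genes, and those members were 6 anterior (54.5% of that class), 3 central and 1 posterior. Against MEF day 0, 17 members had fewer summits and 1 more, where 41.0% and 7.77% of all genes did, and 23 of 38 day-0 Hox summits (60.5%) had no partner, against 53.6% of all. The share differed by -0.0177 points (-0.046 to 0.0142), and by -0.00272 points at equal list length. Knockdown and processing cannot be told apart here: scores of more than 6 digits make up 27.6% to 52.1% of each MEF list without knockdown and 0.0% of each knockdown list.

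Within the knockdown cells, lists with doxycycline had fewer Hox summits than those without on days 1 and 2. On day 1 there were 11 among 26882 with doxycycline (0.0409%) and 22 among 35635 without (0.0617%). By member, 11 had fewer and 1 more, against 26.0% and 12.2% of all genes, and 15 of 22 Hox summits (68.2%) had no partner, against 45.9% of all. On day 2 there were 15 among 37772 (0.0397%) and 23 among 44493 (0.0517%). By member, 9 had fewer and 3 more, against 20.6% and 17.1%, and 14 of 23 (60.9%) had no partner, against 41.6%. Both intervals of the difference in share included 0: -0.0573 to 0.0177 points on day 1 and -0.0422 to 0.0191 on day 2. The day-1 difference was -0.0208 points, and it turned to 0.00817 points with scores of 10 or more. Members with a summit were 8 with and 14 without doxycycline on day 1 (59.7% and 66.2% of all genes), and 10 and 12 on day 2 (65.9% and 69.1%).

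Hoxa3 had 4 summits with doxycycline and 11 without on day 1, and 8 and 10 on day 2. Hoxb4 had 3 and 2 on day 1, and 2 and 4 on day 2. Of the posterior members, 0 had a summit with doxycycline on day 1 and 4 without it, and 1 had one in each list of day 2. On day 7 the knockdown lists were the shortest of the series, with 13644 summits with doxycycline and 11188 without, and each held 1 Hox summit. That summit lay in the Hoxa5 region without doxycycline, where it counted for Hoxa3, Hoxa5 and Hoxa6, and beside Hoxa2 with it. So 3 members had fewer and 1 more with doxycycline (8.59% and 12.5% of all genes), and 1 and 3 members had any summit (26.2% and 23.6%). Without doxycycline, from day 0 to day 7, all 10 members that had a summit on day 0 had fewer, and 0 members had more. Of all genes, 66.0% had a summit on day 0, 55.7% had fewer and 2.91% more.

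In EB, the induced and the uninduced list had nearly the same Hox share at 12 h. The induced list held 120 Hox summits among 77987 (0.154%), against 131 among 85498 (0.153%), a difference of 0.000652 points (-0.0374 to 0.0392), which ran from -0.0105 to 0.0106 over the alternatives. Every member had a summit in the induced list too, against 80.6% of all genes. By member, 19 had fewer and 11 more, against 23.9% and 21.3% of all genes. Of the uninduced Hox summits 39 of 131 (29.8%) had no partner, against 30.4% of all, and of the induced ones 27 of 120 (22.5%), against 21.9%. Hoxc held 44 summits without and 32 with doxycycline, Hoxd 29 and 32, Hoxb 27 in both and Hoxa 31 and 29. Among the largest member differences, Hoxc6 went from 9 to 6 and Hoxc13 from 8 to 5, and Hoxb8 from 2 to 4 and Hoxd9 from 4 to 6. With 1 list a group, no spread is known against which these differences of 2 or 3 summits could be set.

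The Flk1-positive EB list held 73 Hox summits among 58004 (0.126%). They lay 20 in Hoxa, 12 in Hoxb, 24 in Hoxc and 17 in Hoxd. Members with a summit numbered 36, against 77.6% of all genes, and the 2 without were Hoxb7 and Hoxb8. Against uninduced EB, 29 members had fewer and 5 more, where 35.7% and 13.8% of all genes did, and 68 of 131 Hox summits (51.9%, 43.0% to 60.7%) had no partner, against 46.1% of all. The difference in share was -0.0274 points (-0.0658 to 0.013). Its direction turned at equal list length, with 0.0069 points, and with summits within 500 bp joined it was -0.00171. The interval left out 0 with scores of 10 or more (-0.0456 points, -0.0798 to -0.00816) and with summits near genes as the denominator (-0.0656 points, -0.128 to -0.0017). Against unsorted induced EB, 24 had fewer and 6 more, against 33.6% and 11.9%. Hoxa10 had 6 summits in uninduced and Flk1-positive EB, and Hoxb3 had 10 in the first and 4 in the second. The posterior share of assigned summits was 45.1% in the sorted list, 44.3% in the unsorted induced list and 46.4% in the uninduced list.

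In floxed EB the samples given 4OHT had the higher Hox share, but the permutation test used cannot go below 0.333 with 2 against 2 samples. The share was 0.156% (28 of 17946) and 0.188% (38 of 20229) with 4OHT, and 0.130% (41 of 31436) and 0.101% (24 of 23823) without. Both values with 4OHT lay above both without. The means were 0.172% ± 0.0225 (SD, n = 2) and 0.116% ± 0.021 (SD, n = 2), a difference of 0.0564 points, and the exact two-sided permutation p was 0.333. Nothing in the labels says whether the samples are separate cultures, so this spread may be technical. With all 4 lists cut to their 17946 strongest summits, the means were 0.167% and 0.0641%.

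The pairs with the same replicate number did not move alike by member. For replicate 1, 15 members had fewer summits with 4OHT and 5 more, against 28.8% and 2.59% of all genes. For replicate 2, 3 had fewer and 17 more, against 16.5% and 7.65% of all genes. In replicate 1, 29 of 41 Hox summits (70.7%) had no partner with 4OHT, against 53.8% of all, and 16 of 28 with 4OHT (57.1%) had none without it, against 19.2% of all. In replicate 2 the values were 14 of 24 (58.3%) against 40.9%, and 28 of 38 (73.7%) against 30.4%.

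Members with a summit were 31 and 23 without 4OHT (72.5% and 68.6% of all genes) and 28 and 32 with it (62.9% and 65.5%). Hoxb7 and Hoxb8, neighbouring central genes, each lacked a summit in both samples without 4OHT and had 1 in both samples given it. Both counts come from 1 region, at chr11:96285329-96285525, which lies 112 bp from Hoxb7 and within 5 kb of Hoxb8. Such separation upwards was found at 0.832% of all genes. Hoxb1, the anterior gene of hindbrain patterning, had 3 and 2 without and 0 and 1 with 4OHT, a separation downwards found at 11.3% of all genes. Hoxd10 had 4 and 2 without and 2 and 3 with 4OHT, and Hoxd3 5 and 2, and 2 and 5, so these groups overlapped. Hoxb5, Hoxb6 and Hoxc8, all central, had no summit in any floxed list.

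Genes that act upstream of Hox genes or lie beside the clusters were counted in the same way. The 6 upstream and ParaHox genes had summits in every 12 h EB list, and at most 1 of them had one in any MEF list. In floxed EB 3 and 3 of them had a summit without 4OHT, and 3 and 4 with it. Cdx1, Cdx2 and Cdx4, which activate Hox genes in the embryo, and Gsx1, Gsx2 and Pdx1 all had summits in uninduced EB (27 in all). In MEF day 0 Cdx1 alone had a summit, with 1.

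Of 15 Polycomb and trithorax genes, which encode the main repressors and keepers of Hox activity, 15 had a summit in MEF day 0, in every 12 h EB list and in every floxed list, and 13 on MEF day 7. Of 14 genes beside the clusters, such as Evx1, Skap2, Cbx5 and Mtx2, 13 had one in MEF day 0 and 14 in uninduced EB, where 7 had fewer and 6 more than in MEF. In MEF day 0, 1 of these 14 genes lacked a summit, against 17 of the 38 Hox members, and 72.4% of all genes had one. The gene without a summit was Evx1, beside Hoxa, which had 0 in every MEF list and 6 in uninduced EB. Evx2, beside Hoxd, had 1 in MEF day 0, 0 in every other MEF list and 3 in uninduced EB. These 2 neighbours were thus as sparse in MEF lists as many Hox members.

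Marker genes were read for the cell types the samples could hold. Of 8 fibroblast markers, 8 had a summit in MEF day 0, 3 on MEF day 7 and 8 in uninduced EB, so these markers do not separate the cell types. Of 6 pluripotency markers, 1 (Nanog) had a summit in each of the 12 MEF lists, and 6 in uninduced EB, with 4OHT 5 and 6, and without it 6 and 6. In floxed EB, fibroblast markers with a summit were 7 and 7 without 4OHT and 3 and 4 with it. The mesoderm markers had 10 and 11 summits without and 6 and 6 with it. Summits were also fewer, without overlap, in the other marker lists. Fibroblast markers had 11 and 10 without and 3 and 4 with 4OHT, and endothelial markers 7 and 6, and 2 and 4. Blood markers had 14 and 9, and 7 and 5, and pluripotency markers 12 and 14, and 8 and 10. Of all genes, 72.5% and 68.6% had a summit without 4OHT and 62.9% and 65.5% with it. The summit lists as a whole were also shorter with 4OHT. Of 8 endothelial markers 6 had one in MEF day 0, 0 on day 7, 3 in Flk1-positive day-7 MEF and 6 in uninduced EB, and Tie1 was at 0 in every list. Of 6 blood markers the counts were 5, 0, 3 and 5 in the same lists, with Gata1 at 0 throughout, and of 5 mesoderm markers 3, 0, 3 and 4. The share of all genes with a summit was 72.4%, 44.1%, 58.9% and 81.8% in these lists. It was thus also lower on day 7 and higher in Flk1-positive day-7 MEF than in unsorted cells. The part that a change in cell types has in the Hox counts was not tested. A summit marks an open site and gives no level of expression.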

How the data were processed

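ATAC-seq summits, the bases of highest signal in a peak, were used from 19 lists. Reads were aligned with Bowtie2 2.2.4 to mm10 and peaks called with MACS2, with HOMER also named, per the submitters' processing notes; how replicates were combined is not given in the sources used here. The deposited score is the authors' −log10 q value, and every list has all scores above 1.30, a q value of 0.05. Such scores grow with sequencing depth, so they were ranked only within a list. The written form of the scores differs between the knockdown lists and the MEF lists without knockdown, and no floxed list has a peak with more than 1 summit.

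Summits on chromosomes 1 to 19 and X were counted in Python 3.11.15 (numpy 2.4.6, pandas 2.3.3, scipy 1.17.1, matplotlib 3.10.9). Gene intervals and promoter windows were RefSeq's for GRCm38.p6, and all 38 members were found, 22 of them with a promoter window. Summits matched within 250 bp. Shares have exact Clopper-Pearson 95% intervals and differences Newcombe intervals, both for counting error only; the floxed samples were compared by an exact permutation test. The counting was checked on simulated data. The 38 members, the classes and the other gene lists were chosen with earlier results of these data known. All members, and any gene of the other lists, could be named. Alternatives were a score of 10 or more, equal list length, summits within 500 bp as 1, summits near genes as the denominator, no cluster margin, a 1 kb window, each floxed sample left out and a replicate block.

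The replicate numbers of the floxed samples share only a number in the labels. Read depth, EB at 3 h and signal tracks were not analysed here, and another gene list is not reported here.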

Additional observations from a re-analysis of the deposited data

Results flagged for a closer look

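The Hox share of the list was lower on each doxycycline day than on day 0 in MEF. In EB at 12 h it was 0.000652 points higher with doxycycline than without, and the interval included 0. The MEF difference minus the EB difference was -0.0159 percentage points for day 1, -0.0276 for day 2 and -0.0402 for day 7. Each group has 1 list, so this contrast between the cell types was not tested. The times also differ, and the MEF side holds doxycycline and days in culture together, while both EB lists are of 12 h. At equal list length the MEF values of day 2 and day 7 were 0.00381 and 0.0 points.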

How the results depend on the processing

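Between uninduced MEF and EB the difference in Hox share was -0.0383 points with summits scored 10 or more, -0.058 at equal list length and -0.164 with summits near genes as the denominator, and its direction was the same under all alternatives run. On MEF day 7 it was 0.0 at equal list length. At equal list length the difference was also smaller for Flk1-positive day-7 MEF (-0.00678 in place of -0.0274) and for knockdown day 0 (-0.00272 in place of -0.0177). It changed sign for MEF day 2 (0.00381) and Flk1-positive EB (0.0069). It changed sign with scores of 10 or more for knockdown day 1 (0.00817), and for EB induced against uninduced with summits near genes as the denominator (-0.0105) and with no cluster margin (-0.00398). These intervals included 0 in the comparison as reported and in the alternative named. The floxed difference of 0.0564 points ranged from 0.0404 to 0.0723 when 1 sample was left out, and was 0.0564 with a replicate block (exact p = 0.5, the smallest for 2 pairs) and with crossed numbers, added after seeing the data (exact p = 0.5). The correlation of same-numbered samples' deviations over genes was -0.104. The count of members with a summit was over 1.5 times different in 17 of 19 lists with scores of 10 or more and in 6 of 19 with a 1 kb window. In MEF day 0 it was 10 and 13 in place of 21, and in uninduced EB 27 and 36 in place of 38. The alternative without the day-7 knockdown lists was also added after seeing the data. The unsorted day-7 MEF lists hold 4 or fewer Hox summits, which limits what they can show, and read depth is unknown.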

Other observations

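Fibroblast lists shared a small set of Hox regions. Of the 154 regions, 8 had a summit in at least 6 of the 12 MEF lists, of which 6 were in Hoxa, 2 in Hoxb and 0 in Hoxc and Hoxd. The fibroblast-only regions that recurred most were inside Hoxb3 at chr11:96340842-96341287 and at the listed start of Hoxa3 at chr6:52213291-52213389, each in 5 MEF lists. The second lies between Hoxa6 and Hoxa7. Another inside Hoxa3, at chr6:52183854-52184143, was in 4. The day-0 MEF list had summits in 30 Hox regions, and 22 of these also had one in uninduced EB, 15 on day 1 of induction, 7 on day 2 and 4 on day 7. In knockdown MEF, 14 of the 30 had a summit on day 0. Of all day-0 MEF summits, 60.8% had no summit within 250 bp in uninduced EB. The values were 37.6% on day 1, 66.7% on day 2, 79.7% on day 7 and 53.6% in knockdown day 0. These values count summits and not joined regions, and regions outside the clusters were not counted.

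Around the clusters, summits in the 8 flanking stretches of 100 kb numbered 18 in MEF day 0, 12, 6 and 2 on days 1, 2 and 7 of induction, 42 in uninduced EB, 42 in induced EB and 26 in Flk1-positive EB. The floxed lists held 22 and 14 without 4OHT and 8 and 11 with it there, so both values with 4OHT were below both without. The whole lists were shorter with 4OHT too, with 17946 and 20229 summits against 31436 and 23823. As a share of the list the flanks held 0.07% and 0.0588% without 4OHT and 0.0446% and 0.0544% with it. Inside the clusters the counts were 28 and 38 with 4OHT and 41 and 24 without, and overlapped.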
